A study of Mus musculus with 8 samples.

Results

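Egr1, Egr4, Klf2 and Klf4 encode zinc-finger transcription factors that neurons switch on quickly and briefly when they fire. These 4 genes were taken from 2372 genes of the deposited table by matching each row's chromosome, start, end and strand to the annotation, and each gene gave 1 row. They were chosen by their measured values, the fold change and p of knockout against control and the values of the 4 knockout libraries: all 4 have an unadjusted p below 0.05 in that table, all are lower in the knockouts, and the rule asks how they move together across the knockout libraries. Their fold changes, p-values and library values are therefore given as a description.

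RNA came from the medial prefrontal cortex (mPFC) of 8 naive adult male mice on a C57Bl/6J background. The 4 knockouts (CaKO) were CamK2A-Cre;Gpr158flox/flox, in which Cre driven by the CamK2A promoter deletes floxed Gpr158, an orphan receptor gene, in forebrain excitatory neurons. The 4 controls were Gpr158flox/flox littermates, so both groups carry the floxed allele and only the knockouts carry Cre. The deletion is limited to cells in which the CamK2A promoter is active, whereas the RNA came from whole tissue with glia, vessels and inhibitory neurons. The hour of collection and the handling just before it are not given in the sources used here. Genes of this kind respond within minutes. Fewer cells of a type and less RNA per cell cannot be told apart in such tissue.

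The values used were read counts of the 4 CaKO libraries, each divided by a library factor (normalised counts), and the authors' fold change, p and adjusted p. Library values of the controls were not used here. The CaKO libraries held 2832931 to 3183638 reads over the genes of the table, and total depth is unknown. The library of CaKO replicate 3 stood apart. Among 1195 genes lower in CaKO with a mean of at least 10 normalised counts, 58.6% had their lowest value in replicate 3, against 11.5%, 16.2% and 13.8% in replicates 1, 2 and 4. The highest value was in replicate 4 for 42.0% of them. Among 997 genes higher in CaKO it was the other way for replicate 3, which was highest for 48.7% and lowest for 8.32%. Replicate 3 was thus often the extreme library in the direction of the fold change, among genes selected by that contrast. Of 9 excitatory neuron markers 5 had a row, the Cre driver's own gene Camk2a among them (37911 to 50901 normalised counts). Gpr158 was not matched to a row and is not analysed here, so the deletion was not checked.

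Egr1 and Egr4 belong to the early growth response family, and Klf2 and Klf4 to the Krüppel-like factors. In neurons, calcium entry and ERK signalling act on factors already bound near such genes, CREB and SRF among them, so that transcription starts without new protein synthesis. Egr1 is widely used as a marker of recent neuronal activity and has a high resting level in cortex. Klf2 and Klf4 also respond to blood flow in endothelial cells, where the kinase ERK5 and MEF2 factors induce Klf2, and Klf4 restrains axon growth in neurons.

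The promoters of Egr4, Klf2 and Klf4 are shown for the elements known from rapidly induced genes; no binding was measured here. Capitals mark TGACG, the core of the CREB-binding element, or its reverse complement CGTCA. The sequences are from RefSeq (GRCm38.p6), 5′ to 3′ on the gene's strand, and end before the first transcribed base. They lie at chr6:85513590-85513839 (minus strand, Egr4), chr8:72318812-72319032 (plus strand, Klf2) and chr4:55532476-55532725 (minus strand, Klf4).
Egr4: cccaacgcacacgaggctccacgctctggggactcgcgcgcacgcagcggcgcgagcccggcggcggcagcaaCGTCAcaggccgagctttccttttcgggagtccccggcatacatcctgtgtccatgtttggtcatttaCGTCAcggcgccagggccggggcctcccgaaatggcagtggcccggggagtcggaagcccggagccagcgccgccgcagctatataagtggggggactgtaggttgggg
Klf2: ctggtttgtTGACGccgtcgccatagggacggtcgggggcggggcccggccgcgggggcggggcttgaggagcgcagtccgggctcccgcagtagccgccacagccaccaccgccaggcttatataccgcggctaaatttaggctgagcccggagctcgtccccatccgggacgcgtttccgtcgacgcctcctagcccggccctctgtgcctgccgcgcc
Klf4: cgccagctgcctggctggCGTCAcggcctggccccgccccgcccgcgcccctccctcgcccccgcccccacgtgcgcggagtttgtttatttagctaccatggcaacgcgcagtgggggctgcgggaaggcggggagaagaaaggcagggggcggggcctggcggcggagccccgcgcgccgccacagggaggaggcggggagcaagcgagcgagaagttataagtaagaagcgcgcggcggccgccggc

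TGACG occurred 2 times in the Egr4 window, 177 and 109 bases before the RefSeq start site, and 1 time each in the Klf2 and Klf4 windows. Over all 32851 RefSeq promoter windows, 17.8% of those cut to the same 250 bases and 15.0% of those cut to 221 bases, the length shown for Klf2, held it. TATAA was found in each of the 3 windows, with a match that began 27 bases before the start in Egr4, 131 bases before it in Klf2 and 32 bases before it in Klf4. The Klf2 window stops at the annotated gene start, with 29 bases left between it and the RefSeq start. It was present in 22.8% of all windows of 250 bases and 19.3% of those of 221. GCGNGGGCG, the form of site that Egr proteins bind, occurred 1 time in Klf2 and 2 times in Klf4 and was not found in Egr4 (4.70% of windows of 250 bases and 3.79% of those of 221). GGGCGG, the GC box, occurred 2 times in Klf2 and 4 times in Klf4, overlapping some of the GCGNGGGCG matches, against 32.7% of windows of 250 bases and 28.7% of those of 221. The MEF2 box was matched 1 time, in Klf2, against 2.61% of windows of 221 bases. CACCC, the core that Klf proteins bind, and the CArG box that SRF binds were not matched in these windows (52.0% and 1.47% of windows of 250 bases hold them). All motifs were searched on both strands, and a match describes letters only.

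Egr1 was the most abundant of the 4. Its gene (ENSMUSG00000038418.7, chromosome 18: 34859823 to 34864984, plus strand) gave 3325, 4125, 2863 and 4800 normalised counts in CaKO replicates 1, 2, 3 and 4. Replicate 3 was lowest and replicate 4 highest, and no 2 of the 4 counting intervals (95%, exact Poisson) overlapped, which sets the mice against counting error alone. The mean was 3778 ± 858 (SD, n = 4). The authors' deposited table gives a log2 fold change of -0.68, which places the control mean at 6059 normalised counts (an implied value). All 4 CaKO libraries lay below it, at 54.9%, 68.1%, 47.2% and 79.2% of that level. The authors' deposited adjusted p for Egr1 is 0.204, so the difference did not pass the threshold of 0.05.

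Egr4, a family member induced along with Egr1, varied most. Its gene (ENSMUSG00000071341.4, chromosome 6: 85511121 to 85513589, minus strand) gave 396, 372, 177 and 622 normalised counts in CaKO replicates 1 to 4. Replicates 1 and 2 lay within each other's counting intervals, replicate 3 below both and replicate 4 above both. The mean was 392 ± 182 (SD, n = 4), and the highest library held 3.52 times the lowest. Among 2192 genes with a mean of at least 10 this range ranked 27th, and of the 794 genes within 2-fold of its mean level Egr4 itself was the 1 gene with a ratio at least as high. The authors' deposited log2 fold change is -1.004, for an implied control mean of 786 and CaKO libraries at 22.5% to 79.2% of it. The authors' deposited adjusted p is 0.216, and the standard error implied by the deposited p is 0.44 on the log2 scale, the widest of the 4 genes.

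Klf2 had 1 low library. Its gene (ENSMUSG00000055148.7, chromosome 8: 72319033 to 72321656, plus strand) gave 152, 161, 89.5 and 163 normalised counts in CaKO replicates 1 to 4. The intervals of replicates 1, 2 and 4 overlapped one another, and that of replicate 3 (71.9 to 110) lay below all of them, so the order among replicates 1, 2 and 4 is within counting error. The mean was 141 ± 34.9 (SD, n = 4). With the authors' deposited log2 fold change of -0.57 the implied control mean is 210, and replicates 1, 2 and 4 stood at 72.4% to 77.6% of it, replicate 3 at 42.7%. The authors' deposited adjusted p is 0.0777, above the threshold.

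Klf4 was the 1 gene of the 4 that fell at an adjusted p below 0.05, the threshold used here for a call. Its gene (ENSMUSG00000003032.8, chromosome 4: 55527143 to 55532466, minus strand) gave 61.3, 39.1, 27.8 and 69.8 normalised counts in CaKO replicates 1 to 4, which are 61, 39, 28 and 67 reads. Replicate 4 was highest and replicate 3 lowest. The counting interval of replicate 3 (18.5 to 40.2) overlapped that of replicate 2 (27.8 to 53.4) and not those of replicates 1 and 4. That of replicate 2 also overlapped that of replicate 1 (46.9 to 78.8). The mean was 49.5 ± 19.4 (SD, n = 4). The authors' deposited table lists Klf4 as 2.29-fold lower, a log2 value of -1.19 with an adjusted p of 0.0157, for an implied control mean of 113, and the CaKO libraries stood at 24.6% to 61.6% of that level. At an adjusted p below 0.05, 1.97% of the 12938 genes in the authors' adjustment were called lower, and at an unadjusted p below 0.05, 8.68% were. These shares are the background to the 1 and 4 genes here, from which nothing is read because that contrast chose them.

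**Figure D1:**
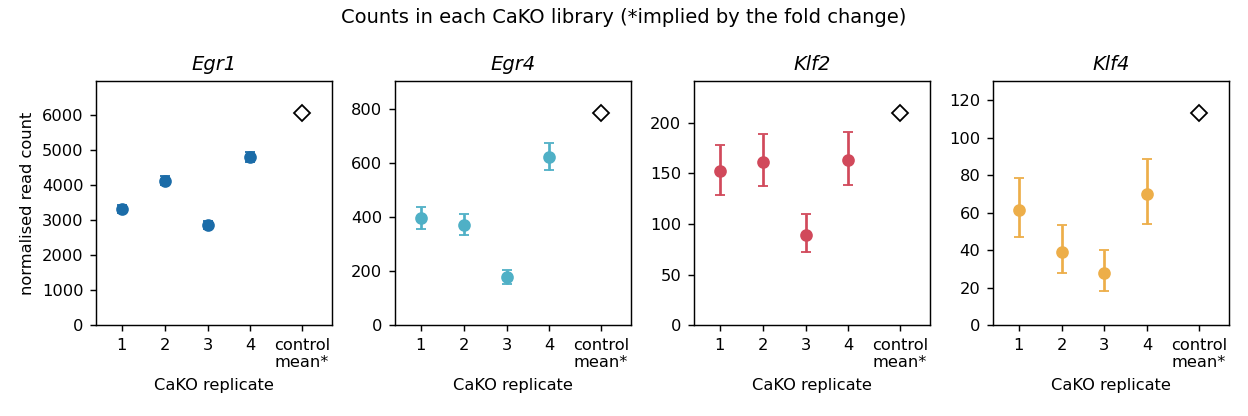
Normalised read counts (y axes, from 0) of Egr1, Egr4, Klf2 and Klf4 in CaKO replicates 1 to 4, with 95% exact Poisson intervals for counting error; open diamonds give the control mean implied by the authors' fold change, with no error known. Replicate 3 is lowest for each gene, replicate 4 is highest (for Klf2 only with the authors' factor or total-read scaling, not with median-of-ratios scaling), and every CaKO value lies below the diamond.

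In all, 16 of 16 CaKO values lay below the implied control means. That is the usual picture in the table: for 96.9% of the 1195 lower genes all 4 CaKO libraries were below the level implied for the controls. The 95% intervals that the deposited p-values imply for the log2 fold change, taking them as Wald tests, ran from -1.26 to -0.11 for Egr1 and from -1.87 to -0.14 for Egr4. They ran from -0.95 to -0.19 for Klf2 and from -1.83 to -0.56 for Klf4. The intervals of the 4 genes overlap, and differences between their fold changes were not tested.

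Without CaKO replicate 3, the log2 fold changes came to -0.57 for Egr1, -0.76 for Egr4, -0.40 for Klf2 and -0.998 for Klf4, with the control mean held at its implied level. Without replicate 4 they came to -0.82, -1.32, -0.64 and -1.41 in the same order of genes. All 4 stayed negative without any single CaKO library. The call of Klf4 was followed by an approximation that widens the implied standard error when a library is left out, against 0.00162, the largest unadjusted p of any called gene. The call ended without replicate 3, at an approximate value of 0.00445, and without replicate 2, at 0.00177.

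**Figure D2:**
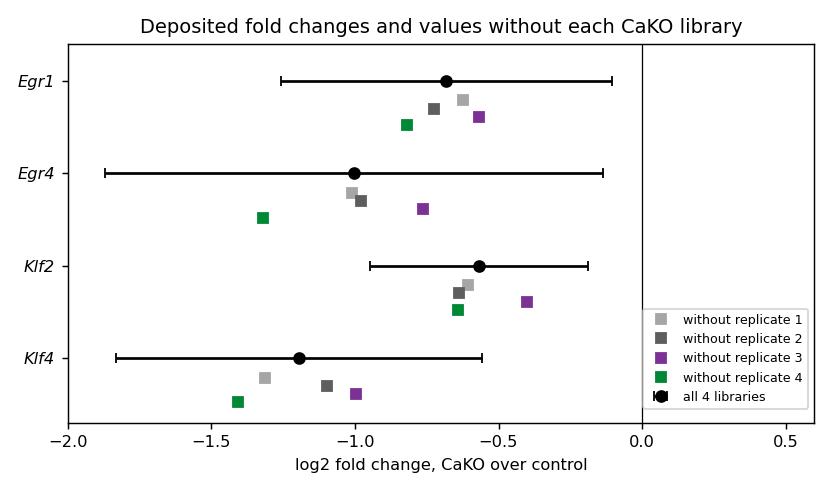
Log2 fold changes, CaKO over control (x axis), of the 4 genes: black circles are the authors' deposited values with the 95% intervals their p-values imply, and squares are the values without each CaKO library in turn. Every square stays left of 0, from -1.41 for Klf4 without replicate 4 to -0.40 for Klf2 without replicate 3.

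Levels between genes were compared per kilobase of exon. Egr1 averaged 843 ± 191 normalised counts per kilobase, Egr4 182 ± 84.8, Klf2 76.5 ± 18.9 and Klf4 16.2 ± 6.37 (SD, n = 4 each). The order was the same in each library, with Egr4 at 1.70 to 3.29 times Klf2 per kilobase and Klf2 at 3.84 to 6.81 times Klf4. Egr4 and Klf2 were the only neighbours whose ranges over the libraries overlapped (82.4 to 290 and 48.4 to 88.0 per kilobase). No exon of the 4 genes is shared with another annotated gene, and no near-identical transcript of another gene was found.

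All 4 genes had their lowest normalised count in CaKO replicate 3 and their highest in replicate 4, and they differed in how far and in replicates 1 and 2. For Klf2 the highest library depends on the library factor: median-of-ratios scaling gave 160 in replicate 2 and 156 in replicate 4, and its reads were 161 and 156. As log2 counts minus each gene's mean (the deviation), replicate 3 stood at -0.37 for Egr1, -1.01 for Egr4, -0.62 for Klf2 and -0.73 for Klf4. Replicate 4 stood at 0.37, 0.80, 0.24 and 0.58 in that order of genes. Between replicates 1 and 2, Egr1 was higher in replicate 2 and Klf4 in replicate 1, where the counting intervals of Klf4 overlap, while Egr4 and Klf2 differed little between them. As a result the ratio of Egr1 to Egr4 counts ranged from 7.72 in replicate 4 to 16.2 in replicate 3. Without replicate 3 the ratio of highest to lowest library was 1.67 for Egr4, against 3.52 with it, and 1.07 for Klf2, against 1.82. With 4 libraries no correlation is given.

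**Figure D3:**
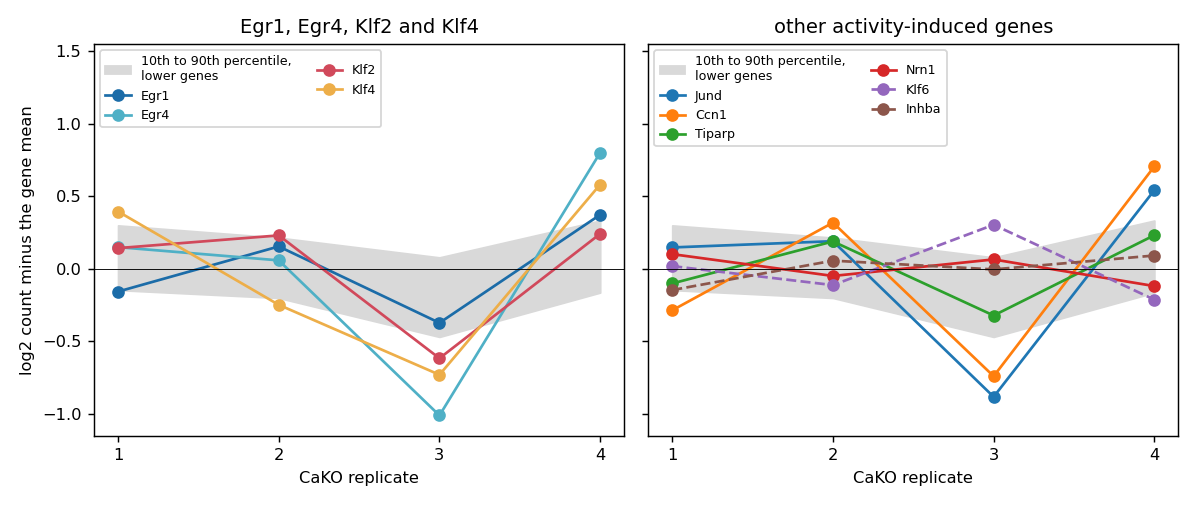
Deviation of each CaKO library from the gene's own mean (y axis, log2 counts) for Egr1, Egr4, Klf2 and Klf4 (left) and for 6 other activity-induced genes with a row (right; dashed lines are genes higher in CaKO). Lines join the libraries of 1 gene and the grey band holds the middle 80% of the lower genes; replicate 3 reaches -1.01 for Egr4 and replicate 4 reaches 0.80.

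The same order of libraries was common. Of the 1195 lower genes, 354 (29.6%) also had replicate 3 lowest and replicate 4 highest, against 42 of 997 higher genes (4.21%). Genes were put in 10 groups of equal size by GC content. In the group with the highest content (58.5% to 73.7%), the median deviation was -0.30 in replicate 3 and 0.25 in replicate 4. In the lowest group (31.3% to 42.4%) it was 0.10 and -0.14. Across 2177 genes the Pearson correlation of GC content with the deviation was -0.37 in replicate 3 and 0.47 in replicate 4, and -0.06 and 0.01 in replicates 1 and 2; genes are not independent replicates. Among 169 lower genes in the highest group, 95 (56.2%) had replicate 3 lowest and replicate 4 highest, against 8 of 49 higher genes (16.3%). In replicate 3 the median deviation in that group was -0.36 for the lower genes and 0.006 for the higher genes. In replicate 4 it was 0.26 and 0.22. Every gene of the table has an unadjusted p below 0.05, so these trends with GC content are over genes selected by the genotype contrast.

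The longest transcripts of the 4 genes have GC contents of 57.3% for Egr1, 68.2% for Egr4, 61.6% for Klf2 and 54.6% for Klf4, which puts each in the 3 highest groups. Once the median deviation of genes in the same group was subtracted in each library, an adjustment chosen after seeing the data, replicate 3 stood at -0.21 for Egr1, -0.71 for Egr4, -0.31 for Klf2 and -0.66 for Klf4. Replicate 4 stood at 0.19, 0.55, -0.01 and 0.47. The ratio of highest to lowest library became 1.33 for Egr1, against 1.68 before, and 2.39 for Egr4, against 3.52 before. It became 1.44 for Klf2, against 1.82, and 2.19 for Klf4, against 2.51. Replicate 3 was still the lowest library for each of the 4 genes, and replicate 4 still the highest for all but Klf2. Of 1189 lower genes with a GC content, 202 (17.0%) had that order after the adjustment. Each group median was taken over lower and higher genes together, so the adjustment does not separate GC content from the direction of the fold change. What part GC content has in the differences between genotypes was not tested.

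**Figure D4:**
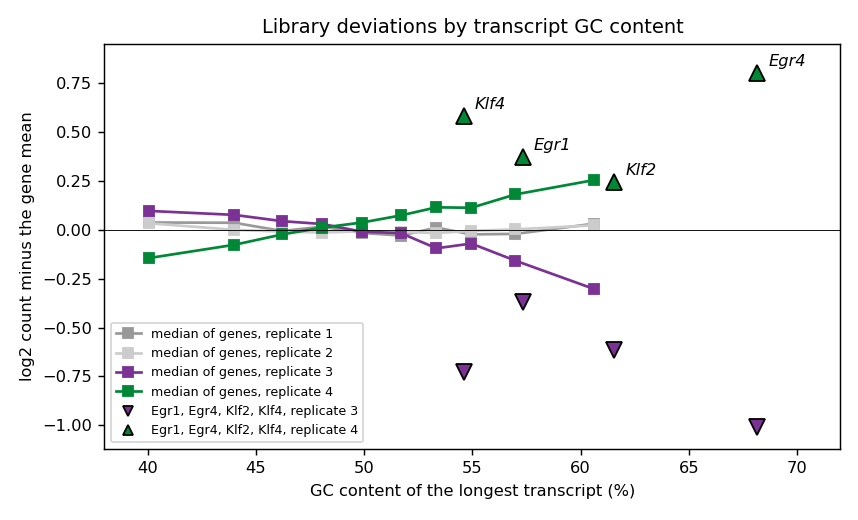
Deviation of a library from the gene's own mean (y axis, log2 counts) against transcript GC content (x axis): squares are medians over genes in 10 groups of GC content for each CaKO replicate, and triangles are Egr1, Egr4, Klf2 and Klf4 in replicates 3 and 4. The medians part from 0.10 and -0.14 at low GC content to -0.30 and 0.25 at high GC content in replicates 3 and 4, and each triangle but that of Klf2 in replicate 4 lies farther from 0 than the medians of its group.

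Likeness between genes was measured as the root mean square difference of their deviations over the 4 libraries. Egr4 and Klf4 were each closest to the other among the 4, at 0.26 log2 units, and Egr1 and Klf2 likewise at 0.21. The pairs across were farther apart, from 0.32 to 0.42. In the order of all 2191 other genes, Klf4 was the 14th nearest to Egr4 and Egr4 the 67th nearest to Klf4. Klf2 was 387th for Egr1, and Egr1 231st for Klf2. By this measure, which also counts how far each gene varied, Egr4 was 1846th and Klf4 1782nd for Egr1. Egr4 was 977th and Klf4 781st for Klf2. Seen from Egr4, Klf2 was 58th and Egr1 133rd, and seen from Klf4, Klf2 was 165th and Egr1 395th. With each gene's deviations divided by their SD, Egr4 was 212th and Klf2 350th for Egr1. Egr4 was then 220th and Egr1 441st for Klf2, so the pairing of Egr1 with Klf2 was not kept. Over the 12 ordered pairs the median rank was 309 without this division and 342.5 with it. Without CaKO replicate 3 the undivided median was 1109, near the middle of the list. It was 174.5 without replicate 1 and 488 after the adjustment for GC content. Of the single libraries, leaving out replicate 3, where all 4 genes were lowest, changed this median most. The ranks are a description, because the library values helped to choose the genes. The 5 genes nearest to their mean deviation were Cacng8, which encodes an AMPA receptor auxiliary subunit, Gnas, the stimulatory G protein alpha subunit, Pak4, a kinase of the actin cytoskeleton, Prr7, a postsynaptic membrane protein, and Kcnk12, a potassium channel (differences of 0.03 to 0.06). Their GC contents were 57.8% to 69.4%. Antisense genes cover 22.0% of the exon sequence of Gnas, and whether counting used strand is not given here.

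The genes nearest to each of the 4 differed from one another. Those nearest to Egr1 were Mvd, an enzyme of sterol synthesis, Aldh2, a mitochondrial aldehyde dehydrogenase, and Rp9. Those nearest to Egr4 were Scand1, Jund and Hspb6, a small heat shock protein, of which Scand1 shares 40.4% of its exon sequence with a gene on the opposite strand. Those nearest to Klf2 included Mrpl42, a mitochondrial ribosomal protein, and Ctsf, a lysosomal protease. Those nearest to Klf4 were a gene listed as Ptp4a1 that shares 94.6% of its exon sequence with another gene of that symbol, Svbp, a partner of the vasohibin tubulin-modifying enzymes, and Rtn4rl2, a Nogo receptor homologue. Each of these 16 genes was lower in CaKO at an unadjusted p below 0.05 by the authors' deposited table. In the authors' deposited table Gnas (log2 fold change -0.73, adjusted p = 0.0243) and Mrpl42 (-0.75, adjusted p = 0.00618) fell at the adjusted threshold, and Ptp4a1, whose counts are uncertain, is listed with an adjusted p of 1.

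**Figure D5:**
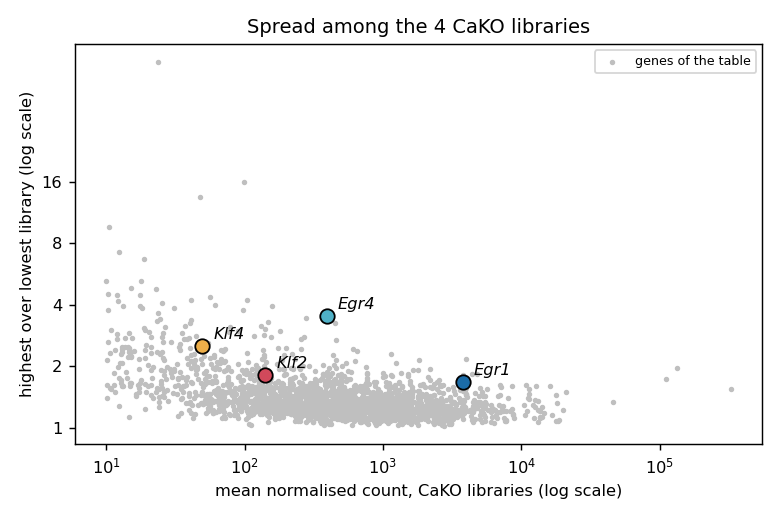
Ratio of the highest to the lowest CaKO library (y axis, log scale) against the mean normalised count (x axis, log scale) for genes with a mean of at least 10; coloured circles are Egr1, Egr4, Klf2 and Klf4. Egr4 stands above all genes of similar level at 3.52, and Klf4, Klf2 and Egr1 lie at 2.51, 1.82 and 1.68.

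Of 76 activity-induced genes in the Egr, Klf and early-response lists, 10 had a row, 8 of them lower and 2 higher in CaKO. The other 66, among them Egr2, Egr3, Fos, Junb, Arc, Npas4 and Nr4a1, had no exactly matched row here, which gives no value for them. At the adjusted threshold 2 of the 76 were called lower, Klf4 and Ccn1, and 0 higher, against 1.97% and 1.27% of all genes in the adjustment. Klf4 was chosen for these values, and outside the 4 chosen genes Ccn1 alone was called. At an unadjusted p below 0.05, 8 of the 76 were lower, of which 4 were outside the chosen genes, and 2 were higher. Nothing is read from counts that include the chosen genes. These are the authors' results, whose notes name DESeq2 (no other tool was run). A row already requires an unadjusted p below 0.05, so the 10 genes with a row are not the base for these shares. Over all genes in the adjustment, 255 were called lower, and 1123 were lower at an unadjusted p below 0.05. The 8 lower genes had a median log2 fold change of -0.62, which includes the 4 genes chosen for their fold changes. The other 4 had a median of -0.45, beside -0.37 for all lower genes of the table in the adjustment, each of which has an unadjusted p below 0.05. The unadjusted background was 8.68% lower and 7.14% higher.

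Ccn1, a secreted matrix protein induced by serum and SRF signalling, gave 30.2, 46.1, 21.9 and 60.4 normalised counts in CaKO replicates 1 to 4. Replicate 3 was lowest and replicate 4 highest here too. The authors' deposited table lists Ccn1 as 2.04-fold lower, a log2 value of -1.03 with an adjusted p of 0.0361. By the same approximation its call ended without replicate 1, at 0.00623 with a log2 fold change of -0.92, and without replicate 3, at 0.0136 with -0.83. Jund, an AP-1 subunit that is less inducible than its relatives, gave 479, 494, 235 and 630 normalised counts, also with replicate 3 lowest and replicate 4 highest. In the authors' deposited table Jund stands at -0.46 on the log2 scale (adjusted p = 0.263), and an antisense gene covers 52.6% of its exon sequence. Tiparp, an ADP-ribosyltransferase induced by activity, ranged from 221 in replicate 3 to 324 in replicate 4, at a log2 fold change of -0.44 (adjusted p = 0.0751) in the authors' deposited table. Its GC content of 40.4% lies in the lowest of the 10 groups, and after the adjustment for GC content replicate 3 stood at -0.42 and replicate 4 at 0.38. Ccn1, at 52.7%, stood at -0.64 and 0.59.

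Other induced genes did not share the order of libraries. Nrn1, a membrane-anchored growth factor of activity-driven synapse formation, was lowest in replicate 4 (1695) and highest in replicate 1 (1975), at a log2 fold change of -0.22 (adjusted p = 0.182) in the authors' deposited table. A gene on the opposite strand covers 22.3% of its exon sequence. Klf6, a relative of Klf2 and Klf4 that supports axon growth, ran opposite to them, with 1051 normalised counts in replicate 3 and 735 in replicate 4. In the authors' deposited table Klf6 stands at 0.25 on the log2 scale (adjusted p = 0.307), and its GC content is 42.4%. Inhba, which encodes an activin subunit, was lowest in replicate 1 (416) and, like the 4 genes, highest in replicate 4 (491). Its log2 fold change is 0.32 (adjusted p = 0.255) in the authors' deposited table. Among the 17 Klf genes 14 had no row, and among the 4 Egr genes 2.

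Of 26 regulators upstream of Egr and Klf induction, 2 had a row. Map2k1, the kinase that activates ERK, rose by the authors' deposited table (0.30 on the log2 scale, adjusted p = 0.0484). It was the 1 gene of the 26 called higher, against 1.27% of all genes in the adjustment. Its CaKO values were 5008, 4812, 6196 and 5162 in replicates 1 to 4, and the call was not followed without replicate 3. Elk3, an ETS factor that works with SRF, had a log2 fold change of -0.46 (adjusted p = 0.0955) in the authors' deposited table. Of 9 genes described as Egr targets, Cdk5r1, an activator of the kinase CDK5, was the 1 with a row, at 0.16 (adjusted p = 0.262) in the authors' deposited table. None of 6 endothelial genes that respond to Klf2 and Klf4, such as Nos3 and Thbd, had a row.

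Markers of the cell types in the tissue were counted against the same background of 1.97% of genes called lower, and a row already requires an unadjusted p below 0.05. Of 16 endothelial markers 3 had a row, and their summed counts were 1796 to 1876 over the libraries, with replicate 3 lowest. The highest sum was only 1.04 times the lowest, and the 3 markers did not share an order of libraries. All 3 were lower in CaKO, and Ly6c1 fell by the authors' deposited table (-0.39, adjusted p = 0.00481), although its near-identical copy Ly6c2 could share reads. None of 9 mural markers had a row, and 1 of 12 microglial markers had one, higher and not called. Of 9 excitatory neuron markers 5 had a row, all lower, and their summed counts were 52093 in replicate 3 and 68300 to 72215 in the others. That sum is mostly Camk2a and Nrgn (means of 46288 and 12792). Each of the 5 was lowest in replicate 3, with ratios of highest to lowest library from 1.19 for Tbr1 to 1.60 for Nrgn. Nrgn (-0.50, adjusted p = 0.0238) and Cck (-0.47, adjusted p = 0.0191) fell in the authors' deposited table. Of 10 glucocorticoid-responsive genes 3 had a row and all were lower, with Tsc22d3 (-0.45, adjusted p = 0.00919) and Mertk (-0.36, adjusted p = 0.0382) called by the authors' deposited table. Their sum was lowest in replicate 3 (2193) and highest in replicate 2 (2733). Blood markers had 3 rows of 10, all lower with 1 called, and their sum was 1405 in replicate 3 and 867 in replicate 4. The called one, Hba-a1, which encodes an alpha globin and has a near-identical copy in Hba-a2, went the other way, with 240 in replicate 3 and 281 in replicate 4. All rows of the 9 inhibitory neuron markers (1), 9 astrocyte (3), 9 oligodendrocyte (7) and 7 genes listed as precursor markers (3) were lower, with 1, 1, 4 and 3 called. The called genes were Npy for inhibitory neurons, Aldoc for astrocytes, and Mbp, Mobp, Mag and Cnp for oligodendrocytes. Those of the precursor list were Olig1, Gpr17 and Bcas1. Of 11 heat shock genes 2 had a row, 1 lower and 1 higher, with neither called. The part of these cell and stress markers in the values of the 4 genes was not tested.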

How the data were processed

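Per the labels' protocols, poly-A RNA from mPFC was sequenced as paired-end reads. Per the submitters' processing notes and the series' design text, TopHat2 2.0.12 aligned reads to GRCm38 (mm10), HTSeq 0.6.1 counted them and DESeq2 1.30.1 was among the tools. The deposited library values are a signal: the authors divided each library's counts by its own factor (100% are whole multiples of a step, within 0.01), although the table is named for FPKM. The direction, CaKO over control, was read from 18 genes at 0 in every CaKO library, of which 18 have negative values. The log2 fold changes, p-values and adjusted p-values are the authors', as deposited, for genes with p below 0.05. Ranks and adjusted p-values fit a Benjamini-Hochberg adjustment over 12938 genes, to within a relative difference of 0.00504, and 325 genes listed at 1 were treated as outside it.

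Genes were named by exact position in GENCODE M21 (2266 rows), with 89 more by 80% mutual overlap on the same strand (Kcnk12 and Ctsf among those named) and 17 unnamed. A limma fit, planned in case control values could be used, was not run. Implied control means are the CaKO mean divided by the fold change. Intervals cover counting error only. Deviations used log2(value + 0.5) and genes with a mean of at least 10, in 10 groups of GC content of the longest transcript. Near-identical transcripts were sought with BLAST 2.17.0 (98% identity, 200 bases). The functions were checked on simulated data. Python 3.11.15, pandas 2.3.3 and scipy 1.17.1 were used.

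Named genes were the 4 genes, every gene with a row in the activity, upstream and target lists, called genes of other lists, the 5 genes nearest to the mean deviation and the 3 nearest to each gene, of which 1 is not reported here. The 4 genes and all lists were chosen with earlier results of these data known. Pim1, matched by overlap, had a log2 fold change of -0.90 (adjusted p = 0.113) in the authors' deposited table. Samples carry replicate numbers and no other batch.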

Additional observations from a re-analysis of the deposited data

Results flagged for a closer look

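Klf2 was marked because CaKO replicate 3 lay far from the other 3 libraries: its gap to the nearest was 0.852 of the whole range, above Dixon's 95% critical value for 4 samples, a description here because these values helped to choose the gene. Mrpl42 (0.885) and Ctsf (0.992) were marked for the same low library, and these were picked for their likeness to Klf2. Cnp, a myelin enzyme gene, was marked for a high replicate 1 (0.929; 2560 normalised counts, against 2264 to 2285 in the others). Chance marks about 1 in 20 groups, and 5 of the 44 genes looked at were past the value, 4 of them named here.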

How the results depend on the processing

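The log2 fold changes stayed negative without each CaKO library, between -0.82 and -0.57 for Egr1, -1.32 and -0.76 for Egr4, -0.64 and -0.40 for Klf2, and -1.41 and -0.998 for Klf4, whose call ended without replicates 2 (-1.10) and 3 (-0.998). The ratio of highest to lowest library ranged without single libraries from 1.44 to 1.68 for Egr1, 1.67 to 3.52 for Egr4, 1.07 to 1.82 for Klf2 and 1.79 to 2.51 for Klf4. Scaling to the table's total reads or by median-of-ratios factors gave 1.56 and 1.60 for Egr1, and GC centring gave 1.33. The median rank of likeness, 309, ranged from 174.5 to 1108.5 without single libraries and was 488 after GC centring. With deviations divided by their SD it was 342.5, and Egr1 and Klf2 were then no longer each closest to the other among the 4. The activity-induced genes called, 2 at the adjusted threshold, were 10 at an unadjusted p below 0.05 and between 0 and 2 without single libraries (0 without replicate 3, by an approximation chosen after seeing the data). The causes were not tested. No paired analysis was possible because only CaKO columns entered the work. Counts of 28 to 67 reads limit the precision of Klf4.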
